A study of Homo sapiens with 2 samples.

Results

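The genes described here make, desaturate, elongate, store and burn fatty acids. They were a list of 46 symbols, taken as the rows of the expression files with those names, out of 26255 symbols in all. All 46 had a row in both files, and 40 of them had an average over the libraries of 1 FPKM or more. FPKM is a count of fragments scaled to transcript length and library size, so levels of different genes can be set side by side.

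RNA was sequenced from tumours of HT-29, a long-used cell line from a human colon cancer, grown under the skin of the back of female NOD SCID mice that were 5 weeks old when obtained. This strain has no T or B cells, and its other cells, stroma and vessels included, are mouse cells. The normal diet group was kept on normal food, and the depleted diet group on a custom food that lacked methionine, tryptophan and niacin. Both groups carried the same cells, which had been cultured with all nutrients, and were fed for 2 weeks, although the design text elsewhere gives 3. Each diet is represented by 1 library, the sources used here do not say how many mice or tumours it came from, and no difference below has a replicate check or a p-value.

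Fatty acid synthesis starts in the cytosol, where citrate or acetate is turned into acetyl-CoA, carboxylated to malonyl-CoA and joined into palmitate. Elongases and desaturases then lengthen palmitate and add double bonds. Fatty acids bound to CoA are either esterified and stored in lipid droplets, or carried into mitochondria as carnitine esters and shortened step by step, with the electrons passed to the respiratory chain through the electron transfer flavoprotein. Malonyl-CoA, the product of the carboxylases, blocks the carnitine step, so synthesis and oxidation normally oppose each other.

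Steps in the low values put the depth at about 7.17e+06 fragments (normal) and 6.93e+06 fragments (depleted). FPKM were above 0 for 16481 and 16427 symbols. All 10 colon epithelial markers averaged 1 FPKM or more, with EPCAM at 472 FPKM with normal food and 444 FPKM with depleted food and LGALS4 at 1346 and 1150 FPKM. Of the 10, 6 were lower with depleted food and 4 higher, KRT18 among the latter (2076 and 2334 FPKM). Below, the ratio of a gene is its FPKM on the depleted diet divided by its FPKM on the normal diet, with a 95% interval that holds counting error only. Where genes were counted, the log2 ratio log2((depleted + 1)/(normal + 1)) was used instead, whose pseudocount of 1 FPKM understates differences of low genes.

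Most of the 40 fatty acid genes averaging 1 FPKM or more had similar levels on both diets. FASN, ELOVL6 and ETFDH had a log2 ratio of at least 0.32, a factor of 5/4, and were counted as higher with depleted food, which is 3 of 40 (7.5%), beside 6.94% of all 12414 genes at that level. ECI2, ACOX3 and PLIN2 had -0.32 or less and were counted as lower, again 3 of 40 (7.5%), beside 7.15% of all genes. Both shares are near the background, so the list as a whole did not stand out by its counts. None of the 40 differed 2-fold in either direction, beside 0.894% of all genes. The median log2 ratio was -0.04 over the 40 genes, of which 17 were above 0 and 23 below, and -0.003 over all genes. Their quartiles were -0.14 and 0.05, against -0.13 and 0.13 over all genes. The summed level of the 46 genes was 1713 FPKM with normal food and 1712 FPKM with depleted food.

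**Figure D1:**
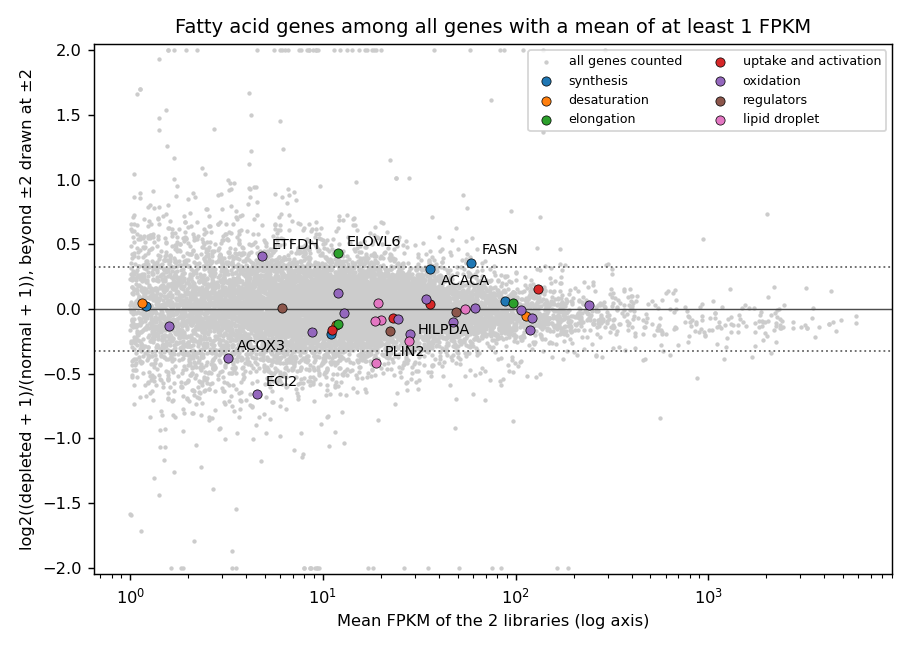
Each point is a gene averaging 1 FPKM or more, placed by its mean FPKM over both libraries (x, log axis) and its log2 ratio of depleted to normal (y, with values beyond 2 in size drawn at the edge). The 40 fatty acid genes are coloured by role and lie among the other genes, with 3 above the upper dotted line (a factor of 5/4) and 3 below the lower one.

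Counting error gave a second view. The interval of the ratio lay above 1 for 5 of the 40 genes (12.5%), ACACA, FASN, ELOVL6, ACSL5 and ETFDH, beside 13.4% of the 11008 genes with a known transcript length. It lay below 1 for 4 of the 40 (10.0%), ACADVL, ECI2, PPARD and PLIN2, beside 14.1% of those genes. These shares are also no larger than the background, and the share among all genes shows that the libraries differed by more than counting error in many genes. Just inside the limit of 0.32 lay FASN, with a log2 ratio of 0.36, and just outside it ACACA, with 0.31. On the lower side these were ACOX3, with -0.37, and HILPDA, with -0.25.

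**Figure D2:**
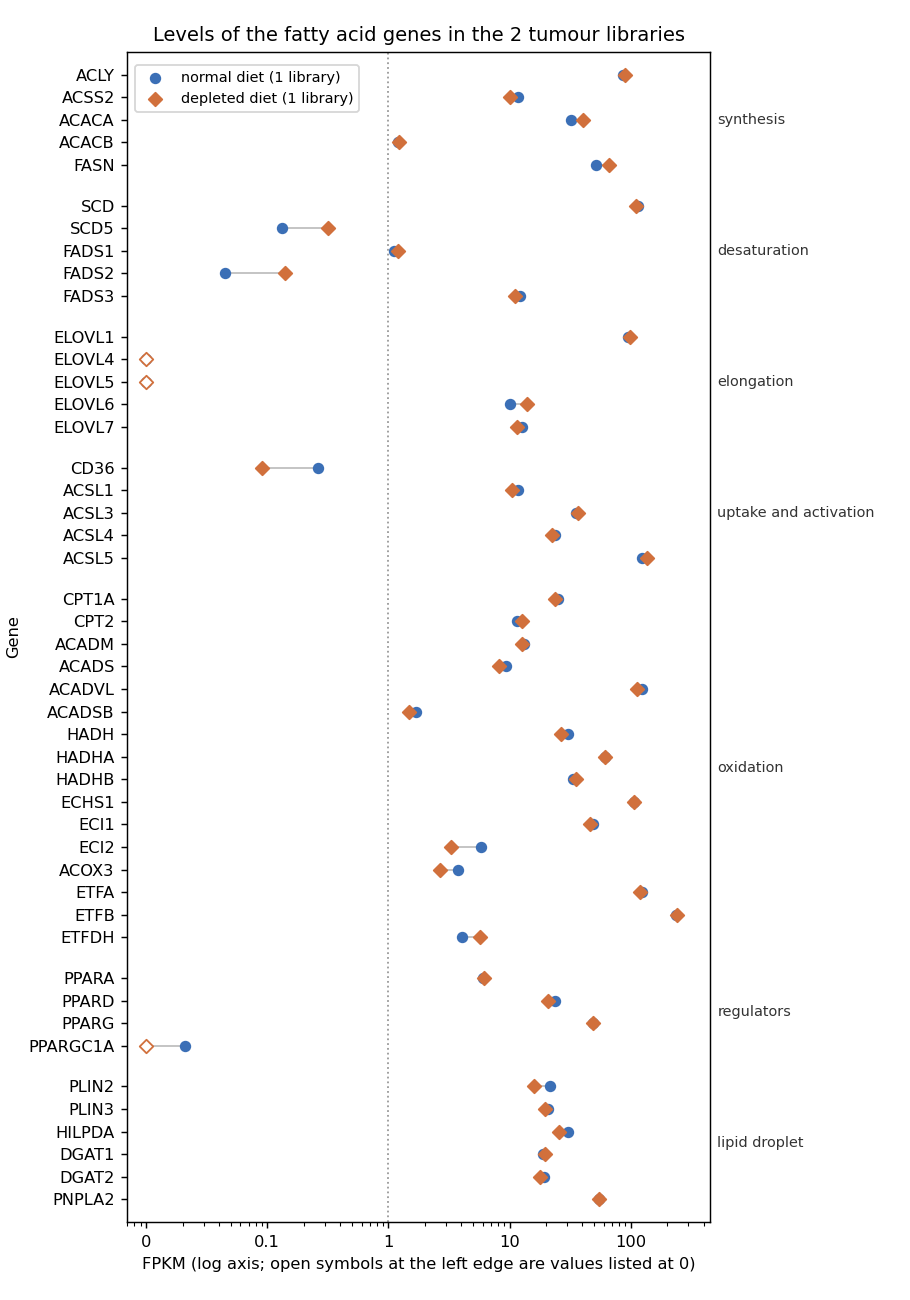
FPKM of each of the 46 genes (x, log axis) in the library of the normal diet (circles) and of the depleted diet (diamonds), grouped by role. ETFB is the highest gene in both libraries, at 238 and 243 FPKM, and 6 genes lie left of the dotted line at 1 FPKM or are listed at 0.

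Of the 5 synthesis genes, 1 was counted as higher, FASN, and 0 as lower. FASN, the multifunctional synthase that builds palmitate, was 51.4 FPKM with normal food and 66.2 FPKM with depleted food. Its ratio was 1.29 (interval 1.23 to 1.35), and it moved from place 1633 to place 1200 among the genes of its library ranked by FPKM. ACACA, the cytosolic acetyl-CoA carboxylase that makes malonyl-CoA, was 32.2 and 40.1 FPKM, a ratio of 1.246 (1.18 to 1.32), but its log2 ratio of 0.31 stayed short of the limit. FASN was thus 1.60 times the level of ACACA on the normal diet and 1.65 times on the depleted diet, a difference within counting error (0.05 on the log2 scale, SE 0.05). Among genes averaging 20 to 100 FPKM, 2.73% of 3589 were counted as higher, and FASN was the 1 of 16 fatty acid genes at these levels that was.

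The suppliers of acetyl-CoA did not share that difference. ACLY, which cleaves citrate to acetyl-CoA, was 86.3 and 90.1 FPKM, with a ratio of 1.04 (0.990 to 1.10). ACSS2, which activates acetate, was lower at 11.8 and 10.2 FPKM, with a ratio of 0.862 (0.719 to 1.03). The ratio of FASN to ACLY was 0.596 on the normal diet and 0.734 on the depleted diet, a difference beyond counting error (0.30 on the log2 scale, SE 0.05). This contrast, like those of FASN with SCD and CPT1A below, mostly restates the higher level of FASN. Of all genes with a known transcript length, 27.5% had an interval of the ratio that excluded 1. ACACB, the carboxylase at the mitochondrial surface whose malonyl-CoA restrains oxidation, was near the limit of counting at 1.19 and 1.23 FPKM. ACACA made up 96.4% and 97.0% of the summed level of the carboxylases. Of the 5 synthesis genes 4 had a log2 ratio above 0, with a median of 0.06.

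Desaturation was carried by SCD, which places the double bond that turns stearate into oleate. SCD was 115 FPKM with normal food and 111 FPKM with depleted food, a ratio of 0.964 (0.924 to 1.01), so it did not share the higher level of FASN. The ratio of FASN to SCD was 0.445 on the normal diet and 0.594 on the depleted diet (a difference of 0.42 on the log2 scale, SE 0.05). Its relative SCD5 was at 0.131 and 0.319 FPKM, about 3 and 7 fragments, too few for a comparison, and SCD made up over 99% of their sum (99.9% and 99.7%).

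FADS1 and FADS2, front-end desaturases that make polyunsaturated fatty acids, were low. FADS1 was 1.11 and 1.19 FPKM, about 36 and 37 fragments. FADS2, which catalyses the entry step of that pathway, was 0.0451 and 0.141 FPKM, about 1 and 4 fragments, again too few for a comparison. FADS3, the less studied member of the family, was 12.2 and 11.1 FPKM and held 91.3% and 89.3% of the family's summed level. FADS1 and FADS2 share 142 bases of exon on opposite strands, and FADS2 shares 49 with FEN1 on the same strand. Fragments of the bases shared with FEN1 cannot be told apart. For those shared by FADS1 and FADS2 this depends on the strand setting of the counting, which is not given.

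Among the elongases, ELOVL6 was the 1 that differed. ELOVL6, which lengthens palmitate to stearate, was 10.00 FPKM with normal food and 13.8 FPKM with depleted food, a ratio of 1.38 (1.20 to 1.59). ELOVL1, which makes very long saturated chains, was far higher at 95.2 and 98.3 FPKM but similar on both diets, with a ratio of 1.03 (0.948 to 1.12). ELOVL7 was 12.6 and 11.5 FPKM, a ratio of 0.914 (0.785 to 1.06), so that ELOVL6 stood below ELOVL7 on the normal diet and above it on the depleted diet. Of the summed level of ELOVL1, ELOVL6 and ELOVL7 alone, ELOVL6 made up 8.49% on the normal diet and 11.2% on the depleted diet. ELOVL4, of retina and skin, was listed at 0 in both libraries. ELOVL5, a widely expressed elongase of polyunsaturated chains, was also listed at 0 in both. A value of exactly 0 in such files may be a failed estimate, so no level is read from it. The share of ELOVL6 in the whole family is therefore not known.

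The 250 bases before the start of ACACA and ELOVL6 are shown because they and FASN, successive enzymes of one route, were the genes of synthesis and elongation whose interval lay above 1. FASN had no sequence in the promoter set and was not searched. The sequences shown are RefSeq promoter sequences on GRCh38.p14, a later build than the hg19 named for the expression values. ACACA lies at chr17:37406837-37407086 and ELOVL6 at chr4:110198616-110198865, both on the minus strand and printed in the direction of the gene. Capitals mark the core of the hypoxia response element, ACGTG or GCGTG on either strand, and the sterol regulatory element TCACNCCAC was also searched.
ACACA: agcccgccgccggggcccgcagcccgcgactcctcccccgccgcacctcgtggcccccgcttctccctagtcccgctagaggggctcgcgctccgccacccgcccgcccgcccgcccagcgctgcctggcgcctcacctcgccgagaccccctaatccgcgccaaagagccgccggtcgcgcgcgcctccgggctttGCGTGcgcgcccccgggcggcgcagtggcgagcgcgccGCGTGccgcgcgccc
ELOVL6: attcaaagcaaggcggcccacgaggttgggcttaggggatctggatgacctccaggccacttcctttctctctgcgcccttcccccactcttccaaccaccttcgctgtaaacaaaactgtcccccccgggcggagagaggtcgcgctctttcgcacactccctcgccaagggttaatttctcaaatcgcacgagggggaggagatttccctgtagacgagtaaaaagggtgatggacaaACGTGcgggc
ACACA held 2 hypoxia cores, 53 and 15 bases before its start, and ELOVL6 held 1, 10 bases before. At least 1 core was present in 43.1% of 27305 promoters of this length and in 24 of the 41 fatty acid genes that had a sequence, so their presence here is common. Neither held the sterol element in this form, which was found in 0.875% of all promoters and in 1 of the 41, PNPLA2. Only 1 promoter per gene was searched, so elements elsewhere in a gene would be missed. A match is a run of letters and not a shown binding site.

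Other genes that feed or govern synthesis were counted from a list of 25, of which 22 averaged 1 FPKM or more. Of these, 2 were counted as higher and 0 as lower, beside 6.94% and 7.15% of all genes, with a median log2 ratio of -0.04 beside -0.003. MID1IP1, which promotes the assembly and activity of acetyl-CoA carboxylase, was 7.30 and 9.52 FPKM with a log2 ratio of 0.34. MLXIPL, the glucose-responsive transcription factor of lipogenic genes, was 2.35 and 3.48 FPKM (0.42), about 55 and 79 fragments. MLXIPL is low and was singled out after the values were seen. SREBF1, the sterol-linked transcription factor that drives FASN, ACACA and SCD, was lower on the depleted diet at 17.9 and 15.2 FPKM (-0.22), and SREBF2 was 50.7 and 43.7 FPKM (-0.21). Both were also picked out after the values were seen. SCAP, which escorts these factors from the endoplasmic reticulum, was 17.5 and 21.9 FPKM (0.31). The lowest log2 ratios of the list were those of MCAT (-0.27) and OXSM (-0.26), enzymes of the separate mitochondrial synthesis route.

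Genes that sterol-regulated transcription controls in cholesterol synthesis and uptake were also read beside the synthesis group. None of the 14 passed the limit of 0.32 in either direction, beside 6.94% of all genes higher and 7.15% lower. A log2 ratio above 0 was found in 10, and the median was 0.06, beside -0.003 over all genes. SQLE, a cholesterol synthesis enzyme, had the highest log2 ratio (155 and 192 FPKM, 0.30), followed by DHCR7, which takes the last step of that route (64.5 and 75.5 FPKM, 0.22). INSIG1, which retains SCAP, had the lowest (40.9 and 34.8 FPKM, -0.23), followed by LSS, which forms the first sterol (29.2 and 26.1 FPKM, -0.16).

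**Figure D3:**
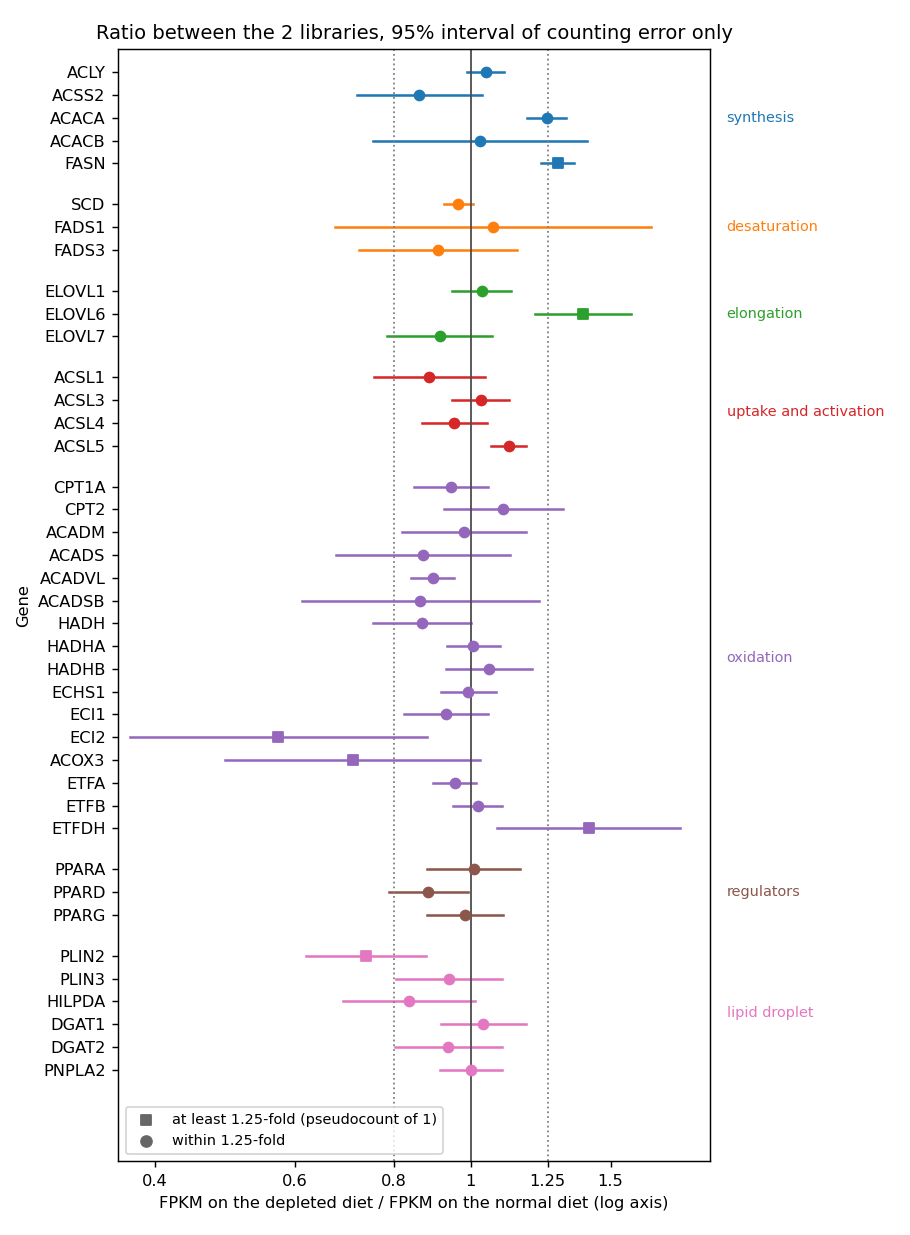
Ratio of FPKM on the depleted diet to FPKM on the normal diet (x, log axis) for the 40 fatty acid genes averaging 1 FPKM or more, grouped by role, with bars for the 95% interval of counting error. Squares mark the 6 genes counted as higher or lower, and the bars of ACACA, FASN, ELOVL6, ACSL5 and ETFDH lie to the right of 1.

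Uptake and activation differed little. CD36, a surface receptor that brings fatty acids into cells, was 0.260 and 0.0903 FPKM, about 4 fragments and 1 fragment. The acyl-CoA synthetases, which join free fatty acids to CoA, were led by ACSL5, a form abundant in intestinal epithelium, at 123 FPKM with normal food and 137 FPKM with depleted food. Its ratio was 1.12 (1.06 to 1.17), and it held 63.4% and 66.4% of the family's summed level. ACSL3, of lipid droplets and the endoplasmic reticulum, was 35.5 and 36.6 FPKM, with a ratio of 1.03 (0.948 to 1.12). ACSL4, which prefers arachidonate, was 23.6 and 22.5 FPKM (0.953, interval 0.867 to 1.05). ACSL1, the form that dominates in fat and liver, was 11.8 and 10.5 FPKM (0.887, interval 0.756 to 1.04). The order ACSL5, ACSL3, ACSL4, ACSL1 was the same in both libraries.

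Of 20 further genes of uptake, binding and activation, 16 were counted, with 0 counted as higher, 3 as lower and a median log2 ratio of -0.04. The shares of all genes were 6.94% and 7.15%, with a median of -0.003. The lower ones included ACOT2, a mitochondrial thioesterase (6.04 and 4.38 FPKM, -0.39), and FABP6, a bile acid binding protein of the gut (11.9 and 9.13 FPKM, -0.35). The other was SLC27A1, a fatty acid transporter, at 2.06 and 1.09 FPKM (-0.55). Of genes averaging 1 to 5 FPKM, where SLC27A1 lies, 13.5% were counted as lower. The share was 6.50% for genes averaging 5 to 20 FPKM, where ACOT2 and FABP6 lie. The highest log2 ratios were those of the transporters SLC27A4 (7.55 and 9.57 FPKM, 0.31) and SLC27A2 (16.5 and 19.5 FPKM, 0.23).

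Mitochondrial import of fatty acids was similar on both diets. CPT1A, the rate-limiting enzyme that makes the carnitine ester, was 25.4 FPKM with normal food and 23.9 FPKM with depleted food, a ratio of 0.944 (0.848 to 1.05). CPT2, which turns the ester back inside the mitochondrion, was 11.4 and 12.6 FPKM (1.10, interval 0.926 to 1.31). FASN, whose route opposes this one, was 2.03 times the level of CPT1A on the normal diet and 2.76 times on the depleted diet. That difference was 0.45 on the log2 scale with a counting SE of 0.09, and comes mainly from FASN.

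The first oxidation step is taken by acyl-CoA dehydrogenases of different chain lengths. ACADVL, for very long chains, was 125 FPKM with normal food and 112 FPKM with depleted food, a ratio of 0.895 (0.840 to 0.954), and held 83.8% and 83.3% of the family's summed level. ACADM, for medium chains, was 13.04 and 12.8 FPKM (0.980, interval 0.819 to 1.17). ACADS, for short chains, was 9.39 and 8.18 FPKM (0.870, interval 0.676 to 1.12), and ACADSB, for short branched chains, was 1.70 and 1.47 FPKM. All 4 had a ratio below 1, and that of ACADVL alone had an interval that did not reach 1.

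Of the later steps, ECHS1, HADHA, HADHB and HADH gave ratios from 0.869 to 1.06. The thiolase ACAA2, from a further list described below, was lower at 69.0 and 55.9 FPKM. ECHS1, the short-chain hydratase, was 107 and 106 FPKM (0.993, interval 0.917 to 1.08). HADHA and HADHB, the subunits of the trifunctional protein for long chains, were 61.4 and 61.9 FPKM and 33.5 and 35.4 FPKM. HADHA was 1.83 times the level of HADHB on the normal diet and 1.75 times on the depleted diet, which is within counting error (-0.07 on the log2 scale, SE 0.11). HADH, the short-chain dehydrogenase, was 30.5 and 26.5 FPKM, with a ratio of 0.869 and an interval of 0.754 to 1.002.

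Isomerases shift double bonds so that unsaturated chains can be oxidised. ECI1, the mitochondrial form, was 49.3 and 45.9 FPKM (0.931, interval 0.824 to 1.05). ECI2, found in mitochondria and peroxisomes, was 5.76 FPKM with normal food and 3.30 FPKM with depleted food. Its ratio of 0.573 (0.372 to 0.881) was the furthest from 1 of all 40 genes, but rested on about 58 and 32 fragments. ACOX3, a peroxisomal oxidase of branched chains, was also lower at 3.76 and 2.67 FPKM, about 69 and 47 fragments, with a ratio of 0.710 (0.491 to 1.03) that counting error alone could cover. Of the 2953 genes averaging 1 to 5 FPKM, where both lie, 13.5% were counted as lower. HSD17B4, which acts after the oxidases in peroxisomes, was 45.96 and 45.6 FPKM.

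Electrons from the dehydrogenases pass to the electron transfer flavoprotein. Its subunits were among the highest genes described, ETFB at 238 and 243 FPKM and ETFA at 125 and 120 FPKM, with ratios of 1.02 (0.950 to 1.10) and 0.955 (0.897 to 1.02). ETFDH, which hands the electrons to ubiquinone, was much lower at 4.02 and 5.66 FPKM, and its ratio was 1.41 (1.08 to 1.84), from about 95 and 129 fragments. Of genes averaging 1 to 5 FPKM, where ETFDH lies, 13.5% were counted as higher. The level of ETFDH was 0.0321 of that of ETFA on the normal diet and 0.0473 on the depleted diet. ETFDH shares 490 bases of exon on the opposite strand with PPID, a cyclophilin, which was 12.6 and 18.4 FPKM. The kit keeps strand, but the sources used here give no strand setting for the counting. Reads of the overlap may have been given to either gene, so the higher value of ETFDH is uncertain.

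In all, 5 of the 16 oxidation genes had a log2 ratio above 0 and 11 below, with a median of -0.07. ETFDH was counted as higher, and ECI2 and ACOX3 as lower. A further list of 27 oxidation genes had 23 counted, of which 10 had a log2 ratio above 0 and 13 below, with a median of -0.04. Over all genes the median was -0.003, and 6.94% were higher and 7.15% lower. The 1 gene of the list past the limit was PPARGC1B, a coactivator near the filter at 0.764 and 1.26 FPKM. The lowest log2 ratio of the list was that of ACAA2, the mitochondrial thiolase that ends each round (69.0 and 55.9 FPKM, -0.30), followed by DECR2, a peroxisomal reductase (14.8 and 12.6 FPKM, -0.21). Its highest, among genes averaging 5 FPKM or more, were CROT (0.16) and CRAT (0.15), carnitine acyltransferases.

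PPARs are nuclear receptors that bind fatty acids and switch on genes for their oxidation and storage. PPARG, which is high in colon epithelium, was 49.2 FPKM with normal food and 48.5 FPKM with depleted food, a ratio of 0.985 (0.882 to 1.10). PPARD was 23.5 and 20.8 FPKM, with a ratio of 0.885 (0.789 to 0.992), and PPARA, the main driver of oxidation in liver, was 6.09 and 6.14 FPKM. PPARG thus made up 62.4% and 64.3% of the summed level of the receptors. PPARGC1A, their coactivator in oxidative tissues, was 0.0208 FPKM on the normal diet, about 1 fragment, and listed at 0 on the depleted diet.

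Of 12 PPAR targets, 10 were counted, with 2 counted as lower, 0 as higher and a median log2 ratio of -0.10, beside 7.15% and 6.94% of all genes and a median of -0.003. Those lower were ANGPTL4, which inhibits lipoprotein lipase (5.97 and 4.34 FPKM, -0.38), and CIDEC, a lipid droplet protein (4.46 and 2.25 FPKM, -0.75, about 41 and 20 fragments). ANGPTL4 is also on the hypoxia list. The highest log2 ratios of the list were TXNIP (0.17) and SLC25A20, the carnitine carrier (0.13). The list shares 5 entries with the lists of other uptake, oxidation and lipid droplet genes.

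Lipid droplets store triglyceride behind a coat of perilipins. PLIN2, the coat protein whose level follows the amount of stored lipid in many cells, was 21.6 FPKM with normal food and 16.0 FPKM with depleted food, a ratio of 0.738 (0.620 to 0.878). Its relative PLIN3 was 20.8 and 19.5 FPKM (0.939, interval 0.806 to 1.09), so that PLIN2 was 1.04 times the level of PLIN3 on the normal diet and 0.819 times on the depleted diet. HILPDA, a hypoxia-induced droplet protein that inhibits the lipase PNPLA2, was 30.5 and 25.5 FPKM, with a ratio of 0.837 (0.691 to 1.01). PNPLA2 itself, which starts the breakdown of triglyceride, was 54.7 FPKM in both libraries. DGAT1 and DGAT2, which make triglyceride, were 19.0 and 19.7 FPKM and 19.2 and 17.9 FPKM. Of these 6 genes, 2 had a log2 ratio above 0 and 4 below, with a median of -0.09, and PLIN2 alone passed the limit.

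PLIN2 and HILPDA are known targets of hypoxia, and the hypoxia genes were lower in the same library. Of 23 on that list 20 were counted, and all 20 had a log2 ratio below 0, 14 of them at -0.32 or less, with a median of -0.39, beside 7.15% of all genes and a median of -0.003. Their summed level was 2868 FPKM with normal food and 2096 FPKM with depleted food. The log2 ratio of PLIN2 (-0.42) was close to that median, while that of HILPDA (-0.25) lay among the weaker ones, near PFKFB3 (-0.21) and EGLN1 (-0.18), the highest of the list. The lowest were EFNA1, a membrane ligand (125 and 68.3 FPKM, -0.87), and ADM (-0.66). The list was chosen with its lower level already known, and its part in the values of PLIN2 and HILPDA was not tested.

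The 250 bases before the start of PLIN2 are shown because it had the lowest ratio of the 6 droplet genes above and hypoxia genes were lower beside it. The region is chr9:19127493-19127742 on GRCh38.p14, minus strand, printed in the direction of the gene, with the same hypoxia cores in capitals.
PLIN2: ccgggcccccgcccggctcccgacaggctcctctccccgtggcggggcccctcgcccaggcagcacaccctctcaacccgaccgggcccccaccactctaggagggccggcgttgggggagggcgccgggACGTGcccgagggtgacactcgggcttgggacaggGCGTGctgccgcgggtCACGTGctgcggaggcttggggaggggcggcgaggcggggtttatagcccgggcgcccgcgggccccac
PLIN2 held 4 matches, at 120, 85, 69 and 68 bases before the start. The last pair overlap in the palindrome CACGTG, an E-box that 6.49% of all promoters held, so the matches lie at 3 places. At least 4 matches were present in 3.26% of the 27305 promoters and in 2 of the 41 fatty acid genes with a sequence, PLIN2 and PPARGC1A. That cutoff of 4 is the number found in PLIN2 itself, with the palindrome counted as 2. The small share is therefore no test of whether PLIN2 is unusual. The window is rich in G and C, 78% against a median of 58% over all promoters, and whether that accounts for the number of matches was not tested.

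Of 27 further genes of lipid droplets and glycerolipid synthesis, 24 were counted, with 2 counted as higher, 1 as lower and a median log2 ratio of -0.04, beside 6.94% and 7.15% of all genes and a median of -0.003. The higher ones were BSCL2, the seipin of droplet assembly (14.7 and 19.4 FPKM, 0.38), and GPAT3, named AGPAT9 in the files, an acyltransferase of the entry step (4.86 and 6.47 FPKM, 0.35). The lower one was CIDEC. LPIN3 (-0.27) and LPIN2 (-0.19), phosphatidate phosphatases, had the lowest log2 ratios among genes averaging 5 FPKM or more. Taking the 4 lists of other fatty acid genes together, 85 of 99 were counted, 5 were counted as higher and 4 as lower, and the median was -0.04, the same to 2 decimals as that of the 40.

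Fat cells of the host could be a source of lipid genes, and a mouse read that resembles human sequence could add to the values. Of 11 adipocyte markers 3 reached a mean of 1 FPKM, CIDEC, LIPE (3.87 and 3.33 FPKM) and PLIN4 (2.11 and 1.72 FPKM), and 4 were listed at 0 in both libraries, FABP4 among them. ADIPOQ, the adipokine that defines fat cells, was listed at 0 on the normal diet and was 0.030 FPKM on the depleted diet. The summed level of the list was 11.1 FPKM with normal food and 8.08 FPKM with depleted food, most of it in CIDEC, LIPE and PLIN4. The part of adipocyte RNA in the lower values of PLIN2 and CIDEC was not tested. In such bulk samples fewer cells of a type and less RNA per cell cannot be told apart. Macrophage markers summed to 27.2 and 24.0 FPKM, with 4 of 10 listed at 0 in both libraries. Of the 3 counted, CD68, which epithelial cells can also express, was 25.6 and 20.8 FPKM, while CD14 (0.709 and 1.49 FPKM) and LAPTM5 (0.873 and 1.75 FPKM) were counted as higher, from about 9 and 18 and about 14 and 27 fragments. Endothelial markers summed to 6.92 and 9.47 FPKM, mostly ENG, with 3 of 7 at 0 in both, and skeletal muscle markers to 1.58 and 1.75 FPKM, mostly MB.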

How the data were processed

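RNA of 2 HT-29 tumour libraries, 1 per diet, was sequenced with a kit that keeps strand, per the labels' protocols. The deposited values are FPKM for 26255 symbols, per the file headers. The submitters' processing notes name Cuffdiff 2.2.1, TopHat2 2.1.1, SAMtools 0.1.18 and Bowtie2 2.2.8 with the build hg19, but no roles. Annotation, strand setting and any removal of mouse reads: not given in the sources used here.

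FPKM are not counts, so no count model and no test was run. Genes averaging 1 FPKM or more over the libraries were counted on log2((depleted + 1)/(normal + 1)), past 0.32 (a factor of 5/4) and at 2-fold. Counts and medians of the 40 members and of each further pathway list stand beside those over all such genes. Members and lists were chosen with earlier results of these data known. All 46 members were named, and from each other list the 2 genes at either end of the log2 ratios among those averaging 5 FPKM or more. Genes named outside this rule were MLXIPL, SREBF1, SREBF2, SLC27A1, PPARGC1B, CIDEC, HSD17B4, PPID, FEN1 and the cell markers, chosen after their values were seen.

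For depth, FPKM times transcript length was taken for genes with a single transcript of at least 1000 nt in GENCODE 29 (on GRCh38, used for lengths and exon overlaps only). Its median within a fixed window of 100 to 170 was 139 (90 genes, normal diet) and 144 (117 genes, depleted diet). This was taken as the value of 1 fragment, and the window itself bounds it. Within 25% of a step around 1, 2 and 3 fragments lay 91, 53 and 33 genes and 116, 52 and 30 genes, and fewer in between. Counting intervals use this depth and the principal transcript's length. They are approximate and hold no biological or library spread. Exon bases shared with another gene in the files make FADS1, FADS2, ACSL5, CPT2, ACADVL, ECI2, ETFDH and DGAT1 (8 of 46) less certain. RefSeq promoters were matched by symbol, 1 per gene, for 41 members, and FASN, HILPDA, ETFDH, DGAT1 and DGAT2 had none. The steps were tested on simulated counts, but with a wider window and each gene's longest transcript. The exact settings used here were therefore not tested. Python 3.11.15, pandas 2.3.3 and numpy 2.4.6 were used.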

Additional observations from a re-analysis of the deposited data

How the results depend on the processing

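Other settings were tried for the pseudocount, low-value filter, scaling, fold and summary of the list. No paired analysis was possible because neither diet had more than 1 library, which also leaves no replicate to drop. At 1.5-fold, 0 of the 40 genes were higher and 1, ECI2, lower, so 1 differed either way, against 0 at 2-fold. At a mean of at least 5 FPKM 1 gene, PLIN2, was lower in place of 3 and 2, FASN and ELOVL6, higher, because ECI2, ACOX3 and ETFDH fall under that filter. With a pseudocount of 5 FPKM FASN and ELOVL6 still counted as higher and ECI2 and PLIN2 as lower, but ETFDH and ACOX3 were not. After scaling to a common sum of FPKM, which adds 0.05 to the log2 ratios of higher genes, ACACA also passed and the median of the 40 genes was 0.01 in place of -0.04; over all genes 9.07% were then higher and 5.65% lower. In its other alternatives the median lay between -0.06 and -0.03. Without a filter the desaturation median was 0.05 in place of -0.05. Restricted to genes averaging 5 FPKM or more, the synthesis median was 0.19 in place of 0.06. The common sum moved log2 ratios by up to 0.05, more than the counting SE of FASN, SCD and ACACA (0.03 to 0.04), and a pseudocount of 5 FPKM moved that of ECI2 from -0.65 to -0.37. No gene named by the rule and counted as higher or lower changed sign. Depth limits genes near 1 FPKM most: the counting SE of the log2 ratio was 0.34 for FADS1 and 0.03 for SCD.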
